A study of Mus musculus with 36 samples.

Results

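Signals of 10 apolipoprotein genes were followed in mouse liver before and after an overdose of acetaminophen. The genes were Apoa1, Apoa2, Apoa4, Apoa5, Apob, Apoc1, Apoc3, Apoe, Apoh and Apom. They were chosen by symbol: a probe set (a group of short probes on the array that reports 1 transcript) was kept where the array's annotation mapped it to exactly 1 of these symbols. This gave 17 probe sets of the 34945 with a single symbol, and 10 genes of 18193. All 10 genes passed the filter on low signals, among 13981 genes tested.

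The study compared 4 inbred mouse strains, labelled SJL, SMJ, DBA and C57, in the first hours after acetaminophen. By the design text SJL livers resist injury by the drug, and those of SMJ, DBA and C57 are sensitive to it. All mice had been fasted overnight, and a single dose of 300 mg per kg was injected into the peritoneum. Each strain had 3 mice killed before dosing (0 h), 3 at 3 h and 3 at 6 h, so that 36 livers were measured in 12 groups, with 1 array per mouse.

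No injected control was sampled at 3 h or 6 h, so hours since dosing, time of day and length of fasting move together and cannot be told apart. Age and sex were not given in the sources used here. The samples were whole liver, in which fewer cells of a type and less RNA per cell cannot be told apart.

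Apolipoproteins are the protein coat of the particles that carry triglyceride and cholesterol in blood, and the hepatocyte secretes most of them. Apob is the scaffold of very low density lipoprotein, which leaves the liver with triglyceride. Apoa1 and Apoa2 build high density lipoprotein, while the smaller proteins of the C group, Apoe and Apoa5 exchange between particles and decide how fast lipases and receptors clear them.

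The deposited values were MAS5 signals, a linear intensity per probe set in which each array has the same trimmed mean, so a signal measures a share of the labelled RNA and not an amount per cell. The 8 hepatocyte markers looked at were all measured, and their summed signal lay between 69051 and 118830 in the 36 livers. Between arrays of the same group the correlation of log2 signals over genes was 0.914 to 0.963 in 36 pairs. The ratio of the 3′ to the 5′ actin control, a measure of RNA integrity, averaged 1.57 to 1.77 in the 4 strains at 0 h, 1.44 to 1.596 at 3 h and 1.35 to 1.67 at 6 h. The same ratio of the Gapdh control averaged 0.719 to 0.766 at 0 h, 0.726 to 0.768 at 3 h and 0.715 to 0.779 at 6 h. The part of RNA integrity in the results was not tested.

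By RefSeq order, Apoa1, Apoc3, Apoa4 and Apoa5 are consecutive protein-coding genes on chromosome 9, and Apoc1 lies next to Apoe on chromosome 7. RefSeq promoter entries of build GRCm38.p6 matched 8 of the 10 members. The 250 bases upstream of the annotated start are shown for 4 of them. Apoa1 stands for the genes that moved together with albumin, and the others are among the genes whose signals went their own way. Apoa5, another of the latter, is not shown. Capitals mark matches on either strand to TATAAA, the TATA box, to AGGTCA, a nuclear receptor half-site, or to CAAAGNNCA, a stretch found in many sites of the liver factor HNF4. CAAAGNNCA can itself contain AGGTCA, and no 2 matches overlap in these 4 windows.
Apoa1, chr9:46228380-46228629 on the plus strand: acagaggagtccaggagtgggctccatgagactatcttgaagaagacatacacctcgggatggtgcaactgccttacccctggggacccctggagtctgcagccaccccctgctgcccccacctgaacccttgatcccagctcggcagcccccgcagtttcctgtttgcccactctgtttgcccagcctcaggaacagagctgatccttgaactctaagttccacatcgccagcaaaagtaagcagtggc
Apoa4, chr9:46240594-46240843 on the plus strand: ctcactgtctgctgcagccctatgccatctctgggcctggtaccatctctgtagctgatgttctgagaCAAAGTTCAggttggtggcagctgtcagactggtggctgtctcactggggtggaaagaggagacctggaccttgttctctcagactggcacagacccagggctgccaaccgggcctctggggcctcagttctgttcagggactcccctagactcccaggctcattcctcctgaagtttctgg
Apob, chr12:7977427-7977676 on the plus strand: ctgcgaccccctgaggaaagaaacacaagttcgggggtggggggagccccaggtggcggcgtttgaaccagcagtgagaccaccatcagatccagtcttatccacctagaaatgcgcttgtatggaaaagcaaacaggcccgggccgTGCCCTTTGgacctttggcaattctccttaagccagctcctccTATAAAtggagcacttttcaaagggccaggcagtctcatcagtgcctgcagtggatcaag
Apom, chr17:35131802-35132051 on the minus strand: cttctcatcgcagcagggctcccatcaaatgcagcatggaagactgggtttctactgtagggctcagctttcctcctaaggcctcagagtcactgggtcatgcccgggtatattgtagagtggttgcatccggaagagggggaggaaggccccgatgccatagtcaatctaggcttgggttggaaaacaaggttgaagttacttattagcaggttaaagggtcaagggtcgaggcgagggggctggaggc

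TATAAA was present upstream in 12.4% of 32851 promoter entries, and among the members in entries of Apoa2, Apoa5, Apob and Apoe. AGGTCA was present in 14.0% of entries and in those of Apoa2 and Apoh. CAAAGNNCA was present in 5.5% of entries and in those of Apoa4, Apob and Apoh. In Apoa4 the match reads along the strand of the gene, and in Apob it lies on the opposite strand, upstream of the TATA box match. Neither Apoa1 nor Apom had a match to any of the 3 motifs in this window. A match is a run of letters and not a measured binding site.

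At 6 h, 8 of the 10 apolipoproteins had risen on the deposited scale as the mean of the 4 strains, by 0.30 to 0.50 on the log2 scale, while Apob and Apoa5 did not pass the test. The rise was shared with albumin and with most other very abundant genes, and it was called for 1 of the 8 after quantile normalization, Apom, where 31.1% of all genes were called. The groups were compared with limma on log2 of the signal plus an offset of 2.77, fitted over all 36 arrays, and p-values were adjusted by Benjamini and Hochberg over the 13981 genes. Of all genes tested, 12.5% were called higher and 20.1% lower in the same comparison. The median change of the members was 0.37, against -0.048 for all genes.

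**Figure D1:**
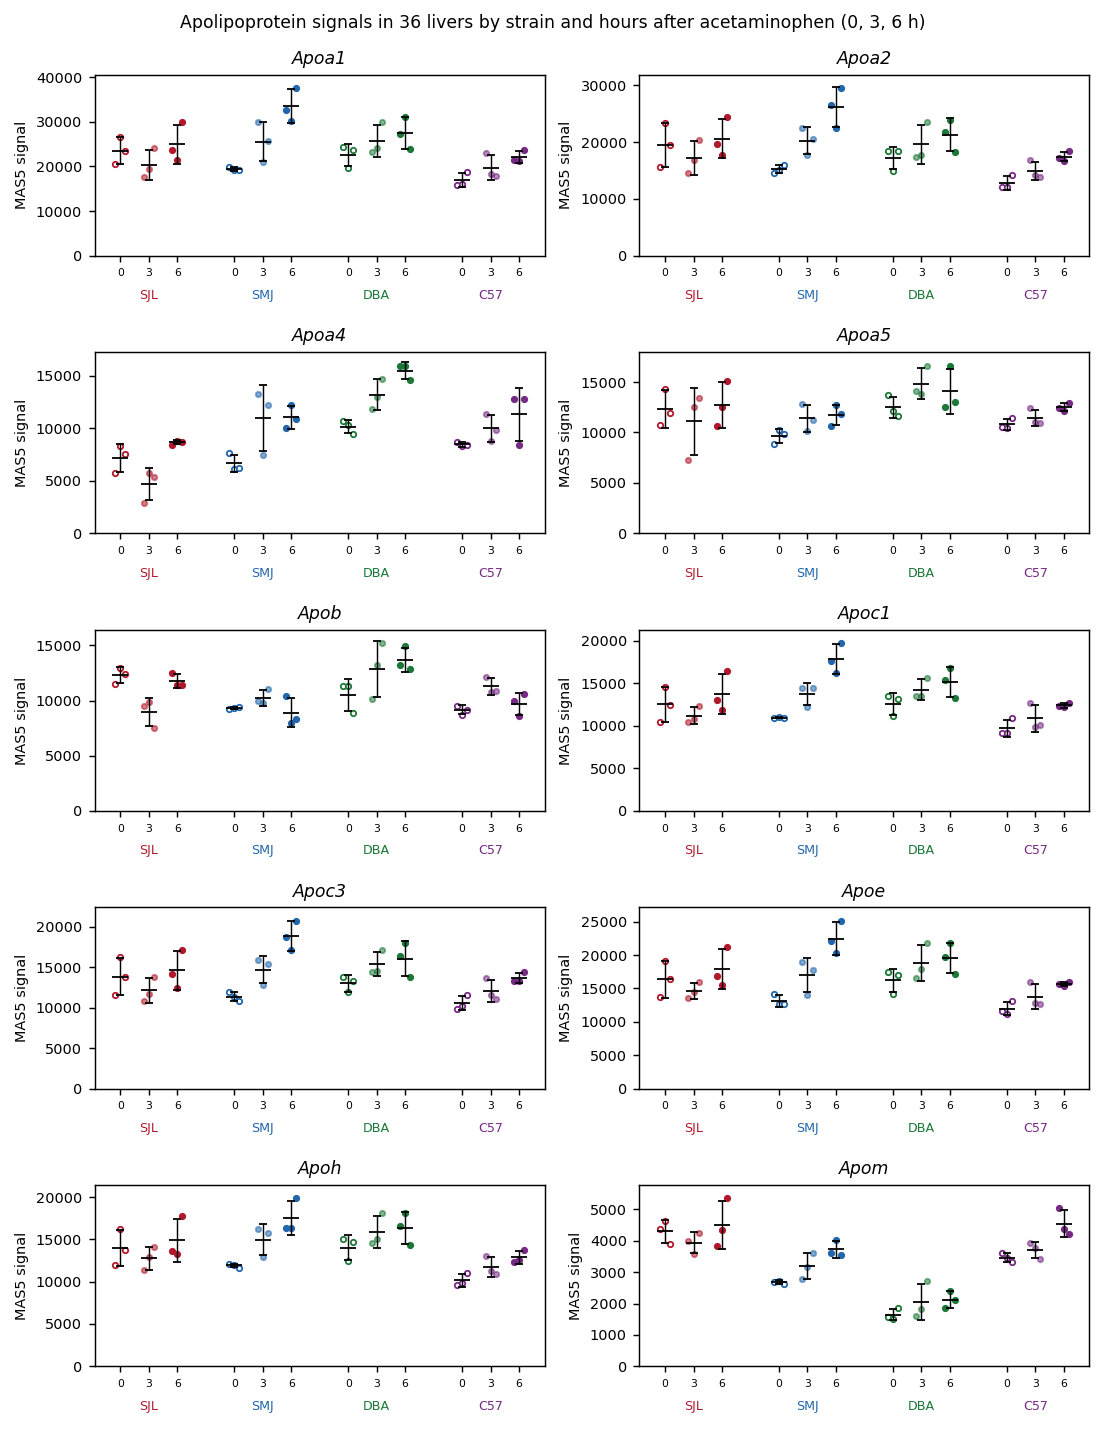
MAS5 signal (linear axis from 0) of the probe set that stands for each member, in each of 36 livers, by strain and hours after acetaminophen. Points are mice (open at 0 h, pale at 3 h, filled at 6 h), and bars give the mean and SD of 3 mice. The SMJ points of Apoa1 climb from 0 h to 6 h, and the DBA points of Apom lie at 1508 to 2704, low at all 3 times.

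The proteins of high density lipoprotein come first. Apoa1, its main protein and the activator of the enzyme that esterifies cholesterol in plasma, gave signals of 19159, 19251 and 19864 in the SMJ livers at 0 h. At 3 h the SMJ signals were 21072, 25599 and 29836, and at 6 h they were 30090.5, 32712 and 37561. Every SMJ mouse at 6 h lay above every SMJ mouse at 3 h, and every mouse at 3 h above every mouse at 0 h. In C57 the 0 h signals were 15829, 16112 and 18651 and the 6 h signals 21130.0, 21531 and 23762, again with no overlap. In DBA the signals were 19736, 23575 and 24254 at 0 h and 23919.6, 27239 and 31083 at 6 h, and the 2 groups overlapped. In SJL they were 20642, 23356 and 26672 at 0 h and 21420.4, 23562 and 29853 at 6 h, and the ranges overlapped again. The mean change of Apoa1 over the 4 strains at 6 h was 0.38 ± 0.077 (SE), with an adjusted p of 0.000345 by limma.

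Apoa2, the other structural protein of high density lipoprotein, rose by 0.40 ± 0.081 at 6 h (adjusted p = 0.000307, limma). Its SMJ signals were 14577, 15169 and 15924 at 0 h and 22466, 26498 and 29539.5 at 6 h, without overlap. Among the exchangeable proteins, Apoc1, which slows the uptake of remnant particles, rose by 0.36 ± 0.068. Apoc3, an inhibitor of lipoprotein lipase and of remnant clearance, rose by 0.37 ± 0.069, and Apoe, the ligand by which receptors take up remnants, by 0.39 ± 0.074. Apoh, a plasma protein that binds anionic phospholipids, rose by 0.30 ± 0.069. The adjusted p of these 4 lay between 0.000141 and 0.00118 (limma), and all 8 calls stood when any single liver was left out. The other 3 probe sets of Apoa1, named as able to bind other transcripts too, rose by 0.42, 0.43 and 0.44, with adjusted p of 0.000336 to 0.000495 over probe sets. The second probe set of Apoh was dim, with signals of 45.9 to 115.2 in the 36 livers, and did not pass (-0.12 ± 0.13, adjusted p = 0.561).

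These 6 genes (Apoa1, Apoa2, Apoc1, Apoc3, Apoe and Apoh) shared their ups and downs liver by liver. Over the 36 arrays each correlated with albumin (Alb), the most familiar secreted protein of the hepatocyte, at r = 0.958 to 0.986. After the group means were taken out, r was still 0.945 to 0.967, so the shared part was between mice of 1 group as well as between groups. The SD of log2 signal within groups was 0.16 to 0.19 for these 6 genes, and was 0.0585 to 0.0818 when each was expressed relative to Alb on the same array. These correlations describe 36 arrays whose points share 1 scaling per array, and they carry no p-value. Of the other 4 members, Apoa5 had r = 0.52 with Alb, Apoa4 0.42, Apob 0.25 and Apom 0.044.

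Apoa1 gave the highest signal of its array on 32 of the 36 arrays, and Apoa2 was among the highest 10 on 22. Quantile normalization gives all arrays the same set of values, so the value of a gene that is highest on each array is fixed by construction. After it, the mean change of Apoa1 at 6 h was 0.023, that of Apoa2 0.036 and that of Apoe 0.019. Relative to Alb on the same array the changes were -0.022, -0.0016 and -0.017. The SE of these 6 rescaled values was 0.030 to 0.057.

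Very abundant genes as a class moved in the same way. The 100 genes with the highest mean signal that are not members had a median change of 0.29 at 6 h, and 95 of the 100 were above 0. After quantile normalization that median was -0.045. Alb itself rose by 0.40 ± 0.088 (adjusted p = 0.000728, limma) on the deposited scale, and stood at 0.026 after quantile normalization. Scaling to the 75th percentile of each array instead left the 8 calls of the members in place. Markers of several cell types moved over the same hours. Called higher at 6 h were 5 of 9 neutrophil markers, 5 of 12 of Kupffer cells and macrophages and 6 of 9 of endothelium. Of the hepatocyte markers 6 of 8 were. After quantile normalization these counts were 5, 5, 7 and 0, with 1 hepatocyte marker lower. Of stellate cells and fibroblasts 2 of 9 were higher and 2 lower, and of bile duct 1 of 4 was higher. Called were 0 of 5 lymphocyte, 0 of 3 erythroid and 0 of 5 intestinal markers. The summed neutrophil markers ran from 179.8 to 994.9 at 0 h and from 464 to 2629.9 at 6 h, and the summed Kupffer cell markers from 4488 to 8804 and from 5994 to 9177. Their part in the result was not tested. Whether the liver held more apolipoprotein RNA or whether other RNA had dropped out of the shared total cannot be told apart from these signals.

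**Figure D2:**
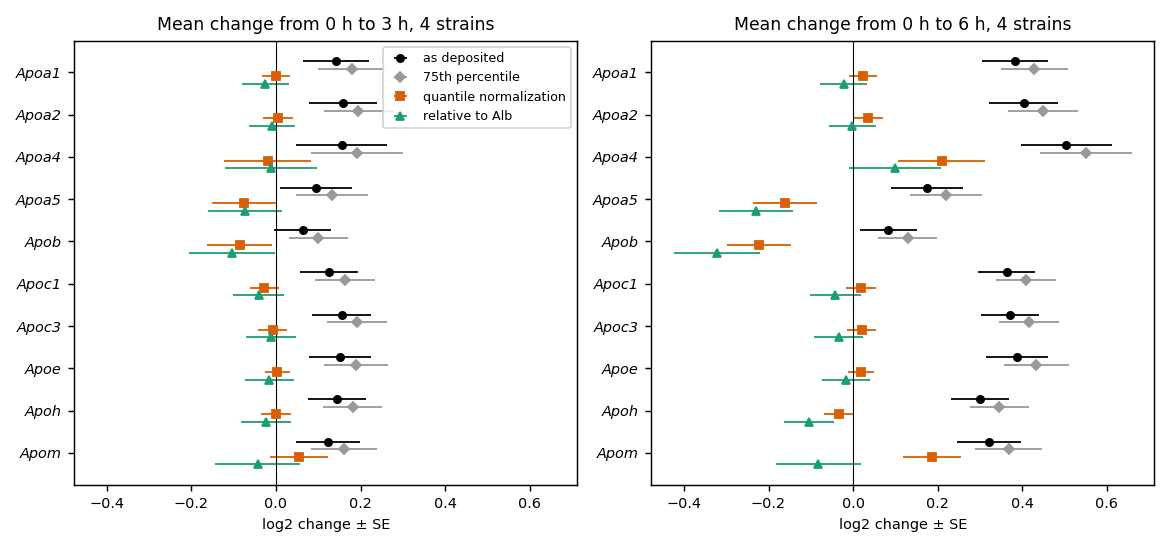
Mean log2 change of the 10 members over the 4 strains, 3 h less 0 h and 6 h less 0 h, with SE, under 4 scalings of the same signals. At 6 h the deposited values lie between 0.083 and 0.50, whereas relative to Alb all but that of Apoa4 lie below 0.

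Apom was the member called higher under both scalings, at 0.32 ± 0.075 on the deposited scale (adjusted p = 0.00148, limma) and 0.19 after quantile normalization (adjusted p = 0.0403). Relative to Alb it was -0.083, with an adjusted p of 0.494. The second probe set of Apom rose by 0.18 ± 0.064 (adjusted p = 0.0319 over 30393 probe sets, limma), and by 0.053 after quantile normalization, which did not pass the test (adjusted p = 0.589).

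By strain, the calls at 6 h on the deposited scale were in SMJ. There 8 members were called higher, against 8.58% of all genes called higher and 12.3% lower in that strain, and none was called in SJL, DBA or C57, where 7.02%, 12.4% and 10% of all genes were called. Other settings gave up to 2 calls in DBA, 1 in C57 and 1 in SJL. The calls of Apoa4 and Apom in SMJ were lost when any 1 of 3 or any 1 of 4 SMJ livers was left out (highest adjusted p 0.0657 and 0.0981, limma). The SMJ changes were 0.78 for Apoa1, 0.77 for Apoa2, 0.77 for Apoe, 0.73 for Apoc3, 0.73 for Apoa4, 0.70 for Apoc1, 0.55 for Apoh and 0.47 for Apom. At an unadjusted p under 0.05, 7 members passed in C57, 4 in DBA and 0 in SJL. The share of all genes at that unadjusted threshold was not counted in any comparison here, so these member counts lack a background. All 3 SMJ livers at 6 h lay above all 3 at 0 h in 9 of the 10 members, Apob being the exception, whereas 15.1% of all genes were separated upwards in this way. In C57 the count was 8 (14.9% of all genes), in DBA 3 (11.4%) and in SJL 1 (11.1%). No member was separated downwards in any strain at 6 h on this scale. Of all genes 20% were in SMJ, 13.9% in C57, 20.7% in DBA and 17.4% in SJL. After quantile normalization 3 members lay above and 1 below in SMJ (14.2% and 19.8% of all genes). In C57 2 lay above and 1 below (13% and 14.5%), and in DBA 2 above and 0 below (12.3% and 18.1%). In SJL 0 were separated either way (11.9% and 16.5%).

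The difference between strains did not itself pass. When the change of SMJ at 6 h was set against the mean change of the other 3 strains, no member was called by limma, against 2.2% of all genes, and 6 members had an unadjusted p under 0.05. For Apoa1 that difference was 0.53 ± 0.18 (adjusted p = 0.128). The F test for any strain difference in the change to 6 h called none of the 10, against 5.25% of all genes, with 5 members at an unadjusted p under 0.05. In SMJ the 100 brightest other genes had a median change of 0.51 and Alb rose by 0.86. Markers of other cells moved there too: 3 of 4 bile duct markers were called higher (median 1.65), 4 of 9 of neutrophils, 2 of 12 of Kupffer cells and macrophages and 1 of 3 erythroid ones. The summed erythroid markers were 154 to 172 at 0 h and 507 to 2216 at 6 h in SMJ, and the summed neutrophil markers 179.8 to 355 and 1243 to 2225. The actin 3′ to 5′ ratio in SMJ was 1.51 to 1.67 at 0 h and 1.28 to 1.41 at 6 h. That of Gapdh went the other way, from 0.715 to 0.724 at 0 h to 0.726 to 0.757 at 6 h. The part of these cells and of RNA integrity in the SMJ result was not tested. After quantile normalization 1 member was called in SMJ (19.1% of all genes were) and it was lower, Apob at -0.59 (adjusted p = 0.00667).

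At 3 h no member was called as the mean of the 4 strains (limma), against 7.06% of all genes, and 2 had an unadjusted p under 0.05, Apoc3 and Apoh. All 10 estimates were above 0, with a median of 0.14 against -0.033 for all genes, and after quantile normalization 4 of the 10 were above 0, and relative to Alb 0 were. From 3 h to 6 h, 6 members were called higher (Apoa1, Apoa2, Apoa4, Apoc1, Apoc3 and Apoe, at 0.22 to 0.35), against 6.92% of all genes. None of those 6 was called after quantile normalization or relative to Alb, and Apoc1 was the only one of them to keep its call with any single liver left out. Without mouse SMJ96, of the 3 h group, the count of 6 dropped to 1. The comparisons from 0 h share their 0 h mice, and those from and to 3 h share the 3 h mice.

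In SJL the estimates at 3 h ran downward on the deposited scale. Every member's estimate was below 0 in that strain, with a median of -0.18, and the 100 brightest other genes had a median of -0.16. After quantile normalization the members' median in SJL was -0.055 with 1 of 10 above 0, and in SMJ -0.0017 with 4 of 10 above 0. Relative to Alb the SJL median was 0.033, with 7 of 10 above 0. Apoa4 and Apob were called lower there (5.45% of all genes were), and these were the only calls among 40 tests of a member in a strain at 3 h. Of all genes, 9.93% were called in SJL, 1.5% in DBA, 0.279% in C57 and 0.172% in SMJ.

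Apoa4, made in liver and intestine and carried on chylomicrons and high density lipoprotein, had the largest ratio of highest to lowest group mean among the probe sets that stand for the 10 genes, 3.31, with group means from 4685 in SJL at 3 h to 15502 in DBA at 6 h. Its SJL signals were 5755, 7532 and 8313 at 0 h, 2904, 5378 and 5775 at 3 h and 8443, 8735 and 8816 at 6 h. The 3 h mice of SJL lay low, with the highest of them just above the lowest at 0 h, and all 3 mice at 6 h lay above both earlier groups. In DBA the signals ran the other way from the start, 9441, 10319 and 10652 at 0 h, 11796, 13019.9 and 14733 at 3 h and 14568, 15963 and 15974 at 6 h, and the 0 h mice lay below all later ones. In SMJ the signals were 6146, 6261 and 7621 at 0 h, 7415, 12247 and 13254 at 3 h and 10012, 10856 and 12227 at 6 h, and 1 of the 3 h mice was still among the 0 h mice. In C57 they were 8319, 8386 and 8712, then 8773, 9886 and 11369.5, then 8382, 12791 and 12802, and 1 of the 6 h mice was as low as the mice at 0 h. The other Apoa4 probe set differed in these separations. On it the SJL mice at 6 h overlapped those at 0 h. The SMJ mice at 3 h and the C57 mice at 6 h all lay above their 0 h mice on it. Apoa4 rose by 0.50 ± 0.11 at 6 h as the mean of the strains (adjusted p = 0.000576, limma), with 0.21 after quantile normalization (adjusted p = 0.13).

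The fall of Apoa4 in SJL at 3 h was -0.67 ± 0.21 (adjusted p = 0.0472, limma). Without the SJL mouse with the lowest signal at 3 h it was -0.35 with an adjusted p of 0.309, and the call was lost when any 1 of 26 of the 36 livers was left out. The difference between SJL and the other 3 strains in the change to 3 h was -1.09 ± 0.25 (adjusted p = 0.0100, limma), and it passed with each single liver left out, at -1.28 to -0.78 and an adjusted p of at most 0.0456. After quantile normalization it was -0.91 (adjusted p = 0.0246), and relative to Alb -0.59, which missed the threshold (adjusted p = 0.124). Of all genes, 2.4% were called lower in that comparison. The 100 brightest other genes had a median of -0.39 in it, with 3 of them above 0, and Alb stood at -0.51. The second probe set of Apoa4, whose name marks it as able to bind other transcripts, gave -1.01 ± 0.20 (adjusted p = 0.0061). From 3 h to 6 h Apoa4 rose in SJL by 0.95 ± 0.21 (adjusted p = 0.0177), against 1.42% of all genes called higher there, and by 0.64 without the lowest SJL mouse (adjusted p = 0.0982). It was the only call among 40 tests of a member in a strain between 3 h and 6 h, where 11.9% of all genes were called in SMJ, 4.46% in C57, 2.52% in DBA and 2% in SJL. The F test over the 4 strains for the change to 3 h gave Apoa4 an adjusted p of 0.0521 and called none of the 10, against 1.97% of all genes, with 2 members at an unadjusted p under 0.05.

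Apoa4 is also an intestinal gene, so intestinal markers were set beside it. Of 6 such markers 5 were measured, and their summed signal in SJL was 1948 to 2651 at 0 h, 519 to 3917 at 3 h and 1455 to 1912 at 6 h. The markers Vil1, Cdx2, Lct and Alpi had medians of 3.81, 23.4, 16.7 and 24.3 over the 36 livers, below 30.8, the median of all values. Alpi ran from 3.43 to 2499.7, and Fabp2 had a median of 2422. In SJL the mean signal of Fabp2 was 2126 at 0 h and 1126 at 3 h, while the means of the other 4 were higher at 3 h: 28.6 and 64.8 for Vil1, 21.8 and 37.5 for Cdx2, 11.4 and 59.5 for Lct, and 196 and 568 for Alpi. Of the 5, 0 were called higher and 1 lower in SJL at 3 h, with a median change of 0.78. Markers of neutrophils stood at 1119 to 2422 in SJL at 3 h, above 449 to 994.9 at 0 h, and those of Kupffer cells and macrophages at 6003 to 6836, below 7423 to 8804. The summed hepatocyte markers in SJL were 72693 to 86681 at 3 h and 79984 to 108569 at 0 h. The actin 3′ to 5′ ratio in SJL was 1.59 to 1.87 at 0 h and 1.41 to 1.51 at 3 h, without overlap. That of Gapdh was 0.740 to 0.798 at 0 h and 0.730 to 0.752 at 3 h, with overlap. The part of these cells and of RNA integrity in the SJL result was not tested.

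Apoa5, the neighbour of Apoa4 and a helper of lipoprotein lipase in clearing triglyceride, did not pass on the deposited scale. Its mean change at 6 h was 0.17 ± 0.085 (adjusted p = 0.124, limma). Its SMJ signals were 8840.1, 9832 and 10284 at 0 h and 10673, 11817 and 12724 at 6 h. The 6 h mice lay above the 0 h mice in SMJ and in C57, and overlapped them in SJL and DBA. Relative to Alb, Apoa5 fell by 0.23 at 6 h (adjusted p = 0.0269, limma) and by 0.57 in SMJ (adjusted p = 0.00721). Most genes fell on that scale: the median change of all genes was -0.43 at 6 h and -0.86 in SMJ. At 6 h 54.8% of all genes were called lower on it. Of the 4 consecutive genes of the chromosome 9 cluster, Apoa1 and Apoc3 correlated at r = 0.984 over the 36 arrays, Apoa4 with Apoa1 at 0.532 and Apoa5 with Apoa1 at 0.579.

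**Figure D3:**
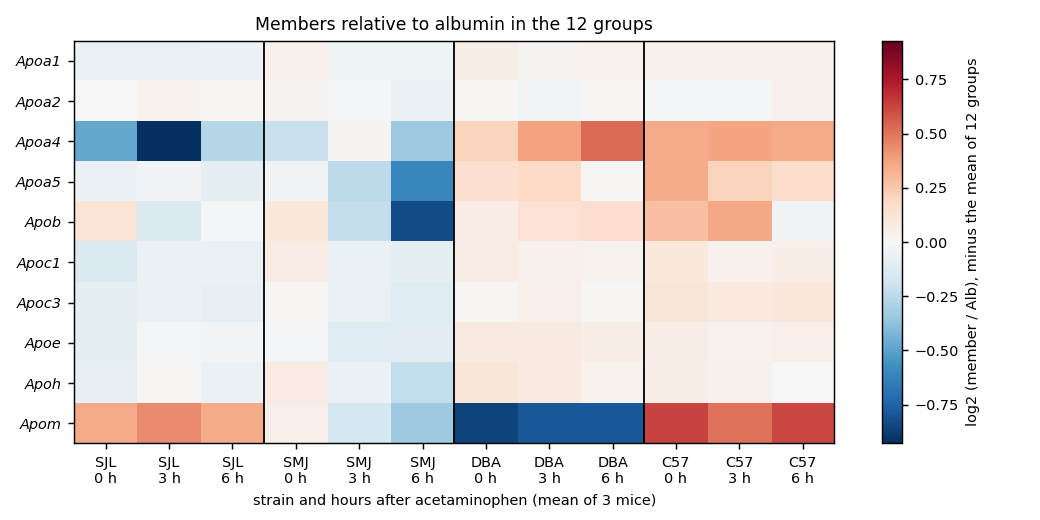
Log2 ratio of each member to Alb, as the mean of 3 mice in each of 12 groups, with the mean of the 12 groups of that member set to 0. The values of Apoa1 and Apoa2 stay within -0.064 and 0.052, whereas Apoa4 is lowest in SJL at 3 h, Apob in SMJ at 6 h and Apom in the DBA groups.

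Apob, the scaffold protein without which no very low density lipoprotein leaves the liver, was read by 2 probe sets that did not behave alike. The brighter, which stands for the gene here, gave SJL signals of 11528, 12370.4 and 12969 at 0 h, 7492, 9514 and 9873 at 3 h and 11385, 11399.7 and 12478 at 6 h. All 3 SJL mice at 3 h lay below all 6 others of that strain. In SMJ the signals were 9206, 9355 and 9379 at 0 h and 8003, 8343 and 10375 at 6 h, where 2 of the 3 later mice lay below and 1 above the earlier ones. In DBA they were 8869.6, 11329 and 11336 at 0 h and 12902, 13251 and 14954 at 6 h, and all 3 later mice were higher. The mean change over the 4 strains was 0.063 ± 0.067 at 3 h and 0.083 ± 0.067 at 6 h, and neither passed (adjusted p = 0.676 and 0.383, limma).

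Set against other abundant genes, the brighter Apob probe set was lower at 6 h. After quantile normalization its mean change at 6 h was -0.22 (adjusted p = 0.0278), and relative to Alb -0.32 (adjusted p = 0.00901). On that last scale 54.8% of all genes were called lower at 6 h, with a median of -0.43 over all genes. Apob and Apoa5 were the 2 members among those called. In SMJ the value of Apob relative to Alb was -0.93 (adjusted p = 0.000496, limma), where the median of all genes was -0.86. Without the lowest SJL mouse at 3 h the fall in SJL was -0.34, with an adjusted p of 0.138. With all mice the fall in SJL at 3 h was -0.46 ± 0.13 (adjusted p = 0.026, limma) and -0.36 after quantile normalization, which did not pass (adjusted p = 0.143). Its difference from the change in the other 3 strains was -0.70 ± 0.16 (adjusted p = 0.00851) on the deposited scale and -0.37 (adjusted p = 0.268) after quantile normalization. The 100 brightest other genes had a median of -0.39 in that contrast on the deposited scale. When the 2 Apob probe sets were averaged, the fall in SJL at 3 h was -0.025 (adjusted p = 0.946).

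The dimmer Apob probe set rose in all 4 strains on the deposited scale, though relative to Alb its 6 h value in SMJ was -0.17. Its SJL signals were 550.4, 585 and 679 at 0 h, 630.4, 816 and 1009.8 at 3 h and 1188, 1703 and 1783 at 6 h. Its DBA signals were 712, 774 and 881, then 921, 992 and 1164, then 1641, 1670.0 and 2437. In both strains all 6 h mice lay above all 3 h mice, and in DBA all 3 h mice above all 0 h mice. The mean change over the 4 strains was 0.46 ± 0.096 at 3 h (adjusted p = 0.00329 over 30393 probe sets, limma) and 0.98 ± 0.096 at 6 h (adjusted p = 1.52e-08), or 1.98-fold. Of all probe sets 2.86% were called higher at 3 h and 12.1% at 6 h. Quantile normalization left the 6 h value at 0.99. By strain the 6 h change was 1.34 ± 0.19 in SJL and 1.26 ± 0.19 in DBA, against 0.68 ± 0.19 in SMJ and 0.64 ± 0.19 in C57, and all 4 passed (adjusted p of at most 0.0354). The SMJ call was lost when either of 2 SMJ livers was left out (SMJ56 or SMJ103, highest adjusted p 0.0739), and the C57 call when any 1 of 4 was (C57180, C57181, C57236 or C57237, highest adjusted p 0.129). The C57 call was also lost relative to Alb, with a change of 0.25, and without the filter on low signals. With only the groups compared the calls in SJL, SMJ and C57 were all lost. In DBA before dosing it stood 0.83 ± 0.16 above the mean of the other strains (adjusted p = 0.000874), a difference the brighter probe set did not show (0.041 ± 0.11, adjusted p = 0.879).

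The log2 ratio of the dimmer to the brighter Apob probe set rose by 0.39 at 3 h and 0.90 at 6 h. It was taken on each array from the deposited signals, and averaged over the 4 strains. A factor common to a whole array cancels in it. A rescaling that depends on the signal, such as quantile normalization, does not cancel. The exact permutation test of the time labels within strains gave a two-sided p of 0.00294 at 3 h and 2.5e-05 at 6 h over 160000 arrangements, 0.00294 and 5e-05 after adjustment for the 2 tests. At 6 h the ratio was higher by 1.41 in SJL, 0.87 in DBA, 0.76 in SMJ and 0.56 in C57. This test was added after the signals had been seen. The stretch of the Apob transcript that each probe set reads was not analysed here, so the 2 readings stand side by side.

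**Figure D4:**
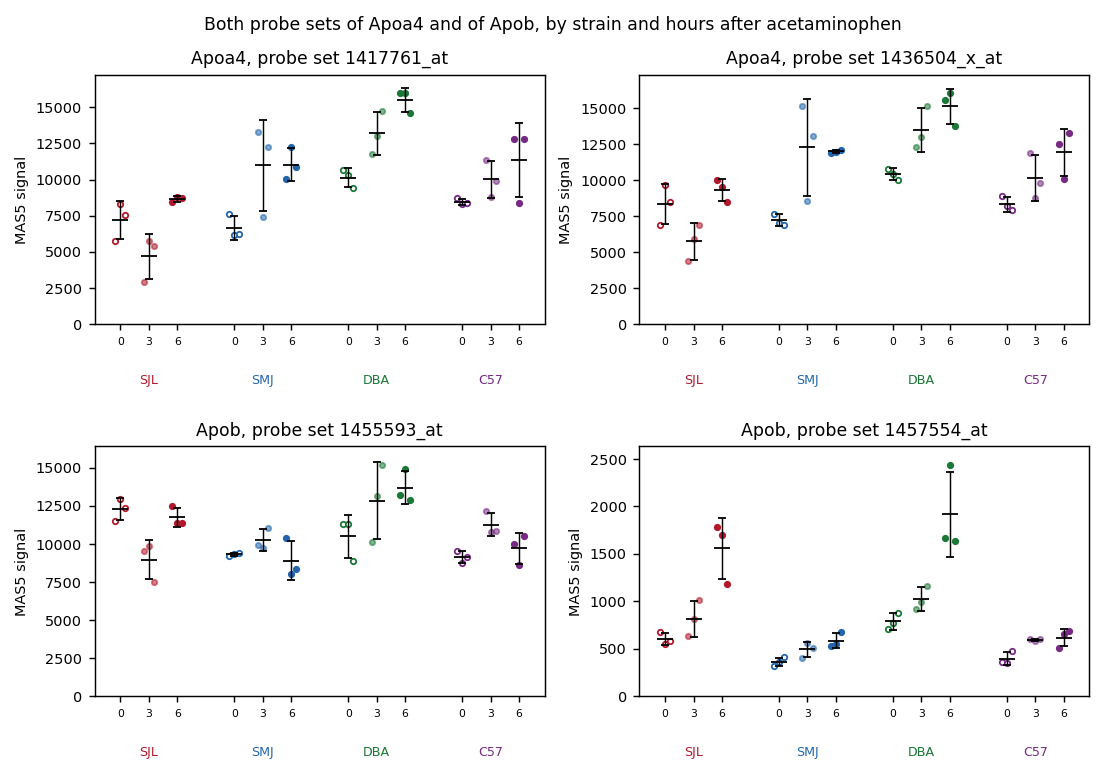
MAS5 signal (linear axes from 0) of both probe sets of Apoa4 and both of Apob in 36 livers, by strain and hours after acetaminophen, with the mean and SD of 3 mice. Both Apoa4 probe sets dip in SJL at 3 h, while the dimmer Apob probe set climbs to 1188 to 1783 in SJL at 6 h and the brighter one ends there at 11385 to 12478.

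Apom, a lipocalin of high density lipoprotein that carries sphingosine 1-phosphate, differed between strains before any drug was given. At 0 h its signals were 1508, 1579 and 1841 in DBA, 2621, 2698 and 2725 in SMJ, 3339, 3463 and 3598 in C57 and 3888, 4389.8 and 4625 in SJL. The 4 strains did not overlap at 0 h, and the order from low to high was DBA, SMJ, C57, SJL. DBA stood -1.06 ± 0.12 from the mean of the other 3 strains (adjusted p = 1.25e-06, limma), SJL 0.79 ± 0.12 (adjusted p = 8.1e-05) and C57 0.38 ± 0.12 (adjusted p = 0.0407). The DBA value lay between -1.20 and -1.05 under every other processing tried and between -1.14 and -1.001 with each single liver left out, and it was called each time. Relative to Alb the SJL value was 0.42 and missed the threshold (adjusted p = 0.0793). The C57 call was lost when any 1 of 8 livers was left out.

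The second Apom probe set gave -1.10 ± 0.11 for DBA and 0.83 ± 0.11 for SJL (adjusted p = 5.2e-08 and 5.15e-06), and 0.27 ± 0.11 for C57, which did not pass (adjusted p = 0.11). Over all 3 times the 9 DBA livers had Apom signals of 1508 to 2704 with a median of 1841, and the 9 SMJ livers 2621 to 4022 with a median of 3170, so 1 DBA liver overlapped SMJ. On the second probe set the 9 DBA livers reached 2544 and the lowest SMJ liver was at 2739.95, so these groups did not overlap. At 3 h the DBA signals were 1612, 1809.7 and 2704, and at 6 h 1848, 2121 and 2411.

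The F test for strain differences at 0 h called 4 members (26.1% of all genes were called): Apom (adjusted p = 6.85e-07, limma), Apoh (0.0301), Apoa2 (0.0331) and Apoe (0.0469). The call of Apoh and that of Apoa2 were each lost when any 1 of 5 livers was left out, and that of Apoe when any 1 of 19 was. After quantile normalization only Apom was called, with an adjusted p of 9.72e-08 (26.3% of all genes were called). In the contrasts of 1 strain with the other 3, 6 of 40 were called (of all genes, 12.2% for C57, 12.1% for SJL, 10.3% for DBA and 9.41% for SMJ), the 3 of Apom above, Apob higher in SJL (0.35), and Apoa2 and Apoh lower in C57 (-0.43 and -0.38). The last 3 were lost when any 1 of 4, 6 and 2 livers was left out, in that order, and after quantile normalization, at 0.16, -0.084 and -0.17. The 100 brightest other genes stood at 0.21 in SJL and -0.21 in C57 in the same contrasts.

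For each member the genes with the most similar pattern were those with the highest Pearson r over the 12 group means, all of which share the array scaling. For Apoa1 these were Apoc1 (r = 0.995), Apoc3 (0.991) and Rbp4 (0.991), the carrier of retinol in plasma. For Apoa2 they were Selenop (0.997), Alb (0.996) and Hpx (0.992), which encode secreted proteins of the hepatocyte. After quantile normalization r was 0.255 between Apoa1 and Apoc1 and 0.923 between Apoa2 and Selenop. For Apoa4 the nearest was Apoc4 (0.927), for Apoa5 Phyh (0.951), for Apob Acads (0.937), for Apoh Apoe (0.982) and for Apom Setd2 (0.970). With quantile normalization those values were 0.792 for Apoa4, 0.972 for Apoa5, 0.710 for Apob, 0.296 for Apoh and 0.926 for Apom. The nearest gene was then a different one for every member. It was Pctp for Apoa4 (0.938), Oxsm for Apoa5 (0.984), Zfand2b for Apob (0.932), Sult1c2 for Apoh (0.934) and Zfp945 for Apom (0.950). Each nearest gene was picked as the highest r among all genes tested, so a high r follows in part from the picking.

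Other genes of lipoprotein handling were counted in lists, beside 32.7% of all genes called at 6 h. Of 16 other apolipoprotein and particle genes tested, 4 were higher and 3 lower at 6 h, with a median of -0.046. After quantile normalization 2 were higher and 6 lower, with a median of -0.20. Apoc2, the activator of lipoprotein lipase, rose by 0.78 and by 0.56 after quantile normalization (adjusted p = 5.85e-08 and 9.16e-06, limma). Pon3, a paraoxonase carried on high density lipoprotein, fell by 0.37 (adjusted p = 9.78e-06). Of 19 genes of particle assembly and secretion, 4 were higher and 2 lower, and after quantile normalization 2 were higher and 4 lower. Sec24c, a coat protein of vesicles leaving the endoplasmic reticulum, fell by 0.45 (adjusted p = 7.64e-07).

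Of 10 genes that remodel particles in plasma, 3 were higher and 1 lower at 6 h (3 and 2 after quantile normalization). Angptl4 and Angptl8, inhibitors of lipoprotein lipase, rose by 2.11 and 1.79, and had risen by 1.04 and 0.97 at 3 h (adjusted p = 0.0244 and 0.0422 at 3 h, limma). Angptl4 was dim, with mean signals of 14.6 at 0 h, 39.5 at 3 h and 86.7 at 6 h, where the median of all values was 30.8. Lipg, the endothelial lipase, fell by 0.80. Of 14 receptors and exporters, 5 were higher and 3 lower, among them Abca1, which loads cholesterol onto Apoa1, at 0.58, and Mylip, which degrades the LDL receptor, at -0.66. Of 27 regulators, 6 were higher and 10 lower, among them Cebpb at 0.87, Nr1h4, the bile acid receptor, at -0.68, and Ppara, the fatty acid receptor that controls several apolipoproteins, at -1.14. At 3 h the calls in these 5 lists were 4 higher in all, in 3 lists, and 6 lower in 2 lists. Of 12 genes for other secreted proteins of the hepatocyte, 10 were higher and 1 lower at 6 h with a median of 0.38, and after quantile normalization 0 were higher and 2 lower.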

How the data were processed

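Total liver RNA of 36 mice had been hybridised to 1-colour Affymetrix arrays. The deposited values were MAS5 signals, a linear intensity per probe set, per the submitters' processing notes. In the values themselves the mean with 2% trimmed at each end was 150 on every array. The MAS5 version and its settings are not given in the sources used here. Of 45101 probe sets, 64 were controls and were left out, 34945 carried 1 gene symbol, 932 several and 9160 none, and symbols were updated by gene identifier where the tables allowed.

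Signals were taken as log2 of the signal plus 2.77, the 10th percentile of all values. For each gene the probe set with the highest mean stood in, passing over those whose names mark cross-hybridisation unless there was no other. A gene was tested where at least 3 arrays exceeded 30.8, the median of all values (13981 of 18193 genes). limma 3.58.1 in R 4.3.3 was fitted with 1 mean per strain and time over all 36 arrays (24 residual degrees of freedom). Tests were two-sided, p-values were adjusted by Benjamini and Hochberg over the features tested in each comparison, and a call means an adjusted p under 0.05. All probe sets were fitted in a second run, and the procedure was tested on simulated data. Figures were drawn with matplotlib 3.10.9 and pandas 2.3.3 in Python 3.11.15.

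All 10 members are named. Of the related lists, the genes of smallest p (up to 3 at 6 h and 2 at 3 h) could be named, and the 3 genes nearest in pattern to each member. Members and lists were chosen with earlier results of these data known. Alternatives were quantile normalization, the 75th percentile, division by Alb, offsets of 1 and 32, no filter, the mean of all probe sets, a fit of only the groups compared, array weights and leaving out each mouse. The ratio of the 2 Apob probe sets and the 100 brightest genes were added after the data had been seen. The number of mice limits the precision, and a fold on this scale understates the change of dim genes.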

Additional observations from a re-analysis of the deposited data

Results flagged for a closer look

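Apoa4 and Apob stood out because their change from 0 h to 3 h differed between SJL and the other 3 strains by a test of the difference itself, among 80 such tests of 10 members. For Apoa4 the difference was -1.09 ± 0.25 on the log2 scale (adjusted p = 0.0100, limma), and both of its probe sets showed it. For Apob it was -0.70 ± 0.16 (adjusted p = 0.00851, limma), on the brighter of its 2 probe sets. The dimmer Apob probe set gave -0.055 ± 0.22 (adjusted p = 0.942). The Apob call was lost after quantile normalization, relative to Alb and with the mean of all probe sets, and that of Apoa4 relative to Alb. Abundant genes shared a downward shift in this contrast. Of the 10 members 0 lay above 0, with a median of -0.43. The 100 brightest other genes had a median of -0.39, with 3 of them above 0, and Alb stood at -0.51. The part of this shift in the 2 results was not tested.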

How the results depend on the processing

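The counts of calls among the members depended mainly on the scaling between arrays. The 8 calls at 6 h, all higher, became 1 higher and 1 lower after quantile normalization, and 0 higher and 2 lower relative to Alb. The 8 at 6 h by strain, all higher, became 1 lower after quantile normalization and 3 lower relative to Alb. In the mean change at 6 h, 31.1% of all genes were called after quantile normalization. Relative to Alb, 54.8% were called lower. Outside SMJ, calls at 6 h appeared in DBA (2 with 75th percentile scaling, 2 with array weights, 1 with the mean of all probe sets), C57 (1 with array weights) and SJL (1 with the mean of all probe sets). The 6 calls from 3 h to 6 h became 0 under both, 2 with only the groups compared and 3 with array weights. The count of 0 at 3 h became 1 with the mean of all probe sets. By strain at 3 h the 2 calls became 1 after quantile normalization, 75th percentile scaling, no filter or the mean of all probe sets, and 0 relative to Alb or with only the groups compared. By strain from 3 h to 6 h the single call became 3 with the mean of all probe sets, and 0 with only the groups compared or with array weights. At 0 h the 4 calls of the F test became 1 after quantile normalization or 75th percentile scaling, 2 relative to Alb, without the filter or with only the groups compared, and 9 with array weights. The 6 contrasts of 1 strain with the others at 0 h became 3 after quantile normalization or 75th percentile scaling and 12 with array weights. For the change to 3 h, the 0 calls of the F test became 2 with 75th percentile scaling or an offset of 32 and 1 with the mean of all probe sets, and the 2 contrasts of SJL became 1 after quantile normalization or the mean of all probe sets and 0 relative to Alb. The 0 contrasts for the change to 6 h became 1 relative to Alb. The cause was not tested.

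For 60 results, values called on the deposited scale or under the alternative were compared. Another setting changed the sign of 26 such values, and leaving out a single liver changed 0. A result that changed sign under several settings was counted each time. Values called under neither are not in that count. Relative to Alb, the mean changes at 3 h went from 10 of 10 members above 0 to 0, and those of Apoa5, Apob, Apoh and Apom from 3 h to 6 h turned to -0.16, -0.22, -0.082 and -0.039. That of Apob also turned with any 1 of 3 livers left out, to -0.019 at the lowest. Relative to Alb the mean changes at 6 h were -0.0221 for Apoa1, -0.0169 for Apoe, -0.0016 for Apoa2, -0.23 for Apoa5, -0.32 for Apob, -0.042 for Apoc1, -0.034 for Apoc3, -0.10 for Apoh and -0.083 for Apom. In SMJ they were -0.0775 for Apoa1, -0.083 for Apoa2, -0.13 for Apoa4 and Apoc3, -0.16 for Apoc1, -0.090 for Apoe, -0.30 for Apoh, -0.38 for Apom and -0.17 for the dimmer Apob probe set. From 3 h to 6 h they were -0.00093 for Apoc1, -0.022 for Apoc3 and -0.0016 for Apoe, and at 0 h -0.024 for Apob in SJL and 0.014 for Apoh in C57. After quantile normalization the mean change at 6 h was -0.22 for Apob and -0.033 for Apoh, and that of Apoh in SMJ was -0.12. A division by Alb or a shared set of values takes the common shift of the abundant genes away by construction.

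With single livers left out, the count was 0 to 0 at 3 h, 8 to 9 at 6 h, 1 to 7 from 3 h to 6 h, and by strain 0 to 2, 6 to 10 and 0 to 1. At 0 h it was 1 to 5 for the F test and 3 to 9 for the contrasts. For the change to 3 h it was 0 to 1 and 2 to 2, and for the change to 6 h 0 to 0 in both. From 3 h to 6 h the count was 1 without SMJ96, 2 without SJL48, SMJ103, DBA158, DBA168, C57230 or C57231, and 3 without SJL39, DBA159 or C57237. By strain at 3 h it was 0 without SJL2 or SJL4, and from 3 h to 6 h it was 0 without SJL39, SJL44 or SJL45. The F test at 0 h gave 1 without SJL2, DBA113, C57180 or C57181 and 2 without SJL4, and the contrasts gave 3 without C57180 or C57181. No paired analysis was possible because mouse numbers do not repeat between groups. The second probe set of Apoh was the dimmest of the 17, at 45.9 to 115.2, where the median of all values was 30.8. The next, the dimmer of Apob, was at 321 or more. No background level was measured here.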
